A study of Mus musculus with 12 samples.

Results

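The natural killer (NK) cells described here are the 1614 cells that the authors numbered cluster 24, out of 93126 cells from 48 mouse tumors. They made up 1.73% of all cells and 13.4% of the 12021 cells in the 9 clusters of T and NK cells (T/NK). Each tumor was grown from MC38, a colon carcinoma line of B6 origin, injected under the skin of female mice aged 8 to 12 weeks, and received 1 dose of 200 µg of an isotype antibody (2A3) or of anti-PD-1 (aPD1, 29F.1A12) when it measured 75 to 110 mm3. Tumors were taken 48 h later, frozen, sorted to 90% CD45+ and 10% CD45- cells, and read by 10x 5′ single-cell RNA-seq in 12 pools of 4 tumors marked by hashtag antibodies.

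Hosts were C57BL/6J mice (B6) or F1 offspring of C57BL/6J and a Collaborative Cross strain, an inbred strain that mixes 8 founder genomes. All groups therefore carried B6 haplotypes, and the F1 hosts carried 1 other set. By the classification of the study, which rests on tumor growth under aPD1 and is not in the labels, CC001/UncJ, CC002/UncJ and CC075/UncJ F1 hosts were responders (10 isotype and 10 aPD1 tumors). CC036/UncJ, CC079/TauUncJ and CC080/TauUncJ F1 hosts were non-responders (9 and 9). B6 and CC007/UncJ F1 hosts were in no class here (5 and 5). The class belongs to the strain, since tumors taken at 48 h showed no outcome of their own, and 2 CC080 tumors carried the same animal identifier. The hashtag moved with class and treatment: hashtag 0301 marked 9 of 10 responder isotype tumors, 0302 marked 9 of 10 responder aPD1 tumors, 0303 marked 8 of 9 non-responder isotype tumors and 0304 marked 8 of 9 non-responder aPD1 tumors, so hashtag and group cannot be told apart.

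NK cells are innate lymphocytes that kill without a rearranged antigen receptor. Activating receptors such as NKp46 (Ncr1), NK1.1 (Klrb1c) and NKG2D signal through adapters with ITAM or YINM motifs, while Ly49 (Klra) receptors and the CD94/NKG2A pair read MHC class I on other cells and mostly hold the killer back. Killing uses perforin (Prf1) and granzymes, and in tumors NK cells are also known as a source of XCL1 and CCL5, chemokines that draw type 1 conventional dendritic cells (cDC1).

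The promoters of the 4 marker genes by which the cluster's label was checked are shown. Each is the RefSeq sequence of build GRCm38.p6 from 250 bases before to 50 bases after the annotated start, 5′ to 3′ on the gene's own strand, and the 4 genes were all found in the table. Capitals mark the RUNX core TGTGGT (reverse ACCACA) and the T-box core AGGTGT (reverse ACACCT), searched on both strands, since Runx3 and the T-box factors Eomes and Tbx21 act in NK cells. Ncr1 (chr7:4337465-4337764, plus strand) and Prf1 (chr10:61297586-61297885, plus strand) are followed by Klrb1c (chr6:128788592-128788891, minus strand) and Gzma (chr13:113100932-113101231, minus strand).
Ncr1: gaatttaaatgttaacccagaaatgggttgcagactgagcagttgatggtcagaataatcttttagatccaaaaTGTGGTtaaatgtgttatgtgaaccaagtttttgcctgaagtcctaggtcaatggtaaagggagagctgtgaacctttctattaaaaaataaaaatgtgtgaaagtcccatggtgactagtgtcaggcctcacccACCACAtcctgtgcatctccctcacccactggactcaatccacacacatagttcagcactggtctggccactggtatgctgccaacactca
Prf1: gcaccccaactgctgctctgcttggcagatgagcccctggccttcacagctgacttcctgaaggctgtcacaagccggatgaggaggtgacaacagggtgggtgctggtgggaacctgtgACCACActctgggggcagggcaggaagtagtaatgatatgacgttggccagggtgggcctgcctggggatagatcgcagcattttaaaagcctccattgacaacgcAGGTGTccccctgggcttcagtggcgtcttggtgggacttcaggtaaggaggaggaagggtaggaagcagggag
Klrb1c: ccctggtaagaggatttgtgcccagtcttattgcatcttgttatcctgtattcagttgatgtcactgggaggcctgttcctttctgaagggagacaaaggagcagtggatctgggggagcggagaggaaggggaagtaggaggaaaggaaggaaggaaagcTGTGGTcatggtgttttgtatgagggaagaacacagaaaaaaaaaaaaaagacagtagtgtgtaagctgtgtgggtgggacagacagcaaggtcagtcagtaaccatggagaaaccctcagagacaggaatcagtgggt
Gzma: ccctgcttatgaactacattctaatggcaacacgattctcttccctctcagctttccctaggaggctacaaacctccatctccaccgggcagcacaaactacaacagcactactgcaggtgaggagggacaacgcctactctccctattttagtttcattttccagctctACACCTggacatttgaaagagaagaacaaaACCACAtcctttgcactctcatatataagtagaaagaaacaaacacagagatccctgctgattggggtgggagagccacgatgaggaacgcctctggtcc
Ncr1 held 2 RUNX matches, and Klrb1c, Gzma and Prf1 held 1 each. Gzma and Prf1 also held 1 T-box match each. Over all 32851 promoters of the same length, 16.8% held the RUNX letters and 13.7% the T-box letters. Matches of the 2 motifs did not overlap, the motifs were chosen after these sequences had been seen, and a match is only a match of letters.

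The label fits the markers. Levels of a whole cluster are given in CPM, a gene's UMIs (tagged transcripts) scaled to a fixed total that is the same for every cluster. Ncr1 stood at 452 CPM in the NK cells against 8.40 in the other T/NK cells, and 55.0% of NK cells had at least 1 UMI of it, against 1.38% of other T/NK cells and 0.0558% of macrophages. Klrb1c stood at 304 against 11.8 CPM (45.6% and 2.52% of cells). Gzma, a granzyme, stood at 1891 against 119.9 CPM (56.8%, 5.02% and, in macrophages, 0.232% of cells), and Prf1 at 351 against 132 CPM (40.1%, 16.0% and 0.0896%). Macrophages, which should lack these 4 genes, had a higher median depth, 3481 UMIs, than the NK cells (1745.5) or the other T/NK cells (1945), so their shares give the level of background. Ncr1 or Klrb1c was seen in 1198 NK cells (74.2%) and in 3.42% of the other T/NK cells. Of the 1153 T/NK cells with Ncr1 or Klrb1c and without a Cd3 UMI, 1045 (90.6%) were in cluster 24.

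Summed over the T cell markers, transcripts of T cells were few but not absent. The 12 T cell markers summed to 678 CPM in the NK cells and 4978 CPM in the other T/NK cells, with Cd3e at 19.3 against 882 CPM and Trac, the alpha constant gene, at 19.8 CPM. Trbc1, the beta constant gene, was an exception. It stood at 274 CPM and was seen in 42.4% of NK cells. With cells thinned to an equal number of UMIs, it was seen in 24.3% of NK cells. The shares were 22.5, 21.7, 18.4 and 19.3% in T/NK clusters 13, 3, 23 and 7, so Trbc1 was not lower in the NK cells. A Cd3 UMI was found in 188 NK cells (11.6%), and results below are also given without them for the named genes whose call is lost. The macrophage list summed to 758 CPM in the NK cells, 1039 CPM in the other T/NK cells and 19315 CPM in macrophages. Spp1 alone gave 608 of the 758. After thinning, Spp1 was seen in 16.0% of NK cells and in 2.03, 9.04, 0.613 and 1.58% of clusters 13, 3, 23 and 7. No UMI was found for Il17a, Il22 and Il23r of the type 3 lymphoid list, for Cd79a and Ms4a1 of B cells, or for Krt8, Krt18, Krt19 and Cldn4 of the tumor cells.

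**Figure D1:**
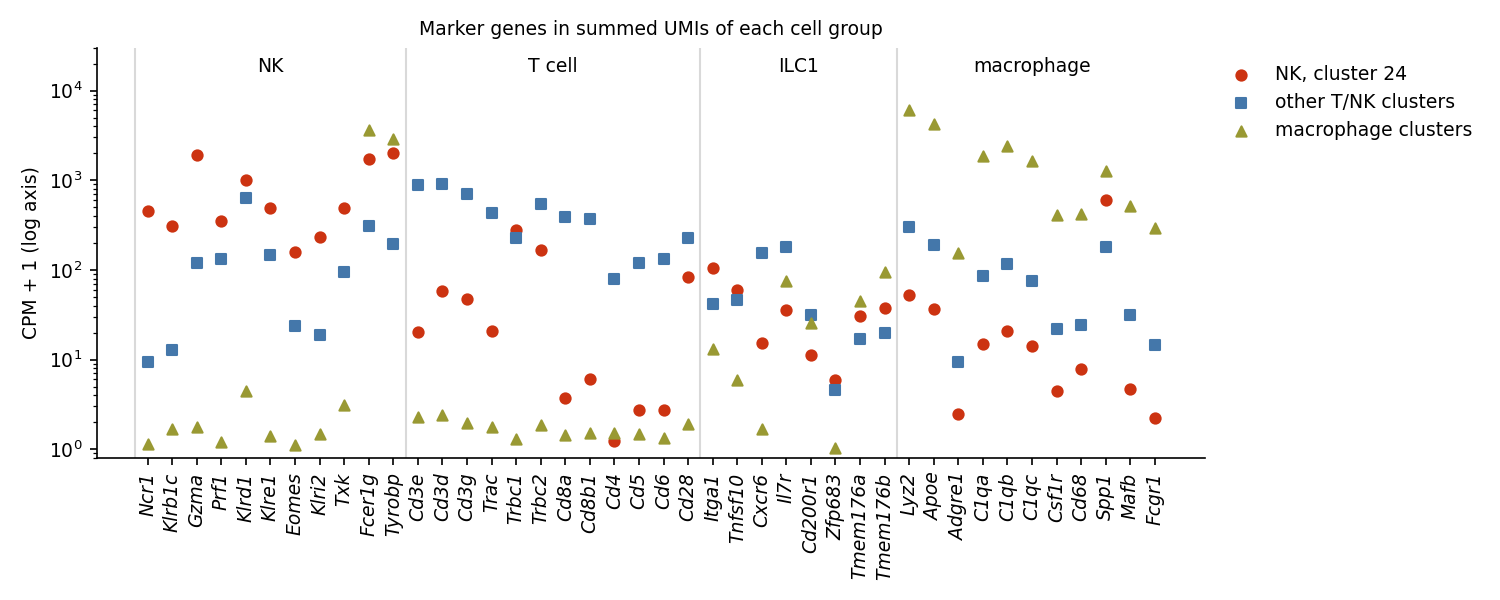
Level of marker genes (CPM + 1, log axis) in the NK cells, the other T/NK cells and the macrophages, grouped by NK, T cell, ILC1 and macrophage markers. NK markers such as Ncr1 (452 CPM) lie far higher in the NK cells than in the other cells. Fcer1g and Tyrobp are shared with macrophages, and Spp1 is the macrophage marker of highest level in the NK cells.

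The cluster was drawn from gene expression of these same cells, so its profile is a description and not a test. The 20 genes of highest fold over the other T/NK cells, among those of at least 50 CPM, were mostly receptors: Klra8 (257 against 3.66 CPM), Klra4 (329 against 5.01), Klra7, Klra3, Klra9, Ncr1, Klrb1f, Klrb1c, Klrb1a, Klrb1b and Klri2. The granzymes Gzmc (1923 against 86.3) and Gzma were among them, as was Itga2 (101 against 7.32), the DX5 integrin used to gate NK cells. Vegfc, a lymphatic growth factor, Car2, a carbonic anhydrase, Clnk, a signalling adapter, Tiam2, Atp1b1 and the gamma-delta gene Trdv4 completed the list. Of 20 inhibitory receptors 6 were higher in cluster 24 than in any other cluster, and of 21 activating and costimulatory receptors 10 were. The share of all genes that were highest in cluster 24 was not counted, so these counts have no background beside them. Reads of Klra and Klrb1 genes are uncertain, because these families have near-identical members and all hosts were aligned to the B6 reference.

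The adapters Fcer1g and Tyrobp were higher in the NK cells than in the sum of the other T/NK cells. The checkpoint receptors named here were lower, as were the T cell signalling genes Zap70 and Lat. Fcer1g, the ITAM adapter of NKp46, stood at 1722 CPM against 304 in the other T/NK cells, and Tyrobp (DAP12), the adapter of activating Ly49 receptors, at 1986 against 192. The kinase Syk stood at 57.8 against 8.98 CPM, while Zap70, its T cell relative, stood at 84.7 against 148 and the T cell scaffold Lat at 30.1 against 239. Pdcd1, the target of the antibody, stood at 6.12 CPM in the NK cells and 177 in the other T/NK cells. Havcr2 (5.14 against 142), Lag3 (36.7 against 212), Ctla4 (42.1 against 424), Icos (38.4 against 435) and Tnfrsf4 (1.47 against 280.4) were low in the same way. Some single T/NK clusters were closer: after thinning to 1000 UMIs, Lag3 was seen in 3.09% of NK cells, 1.23% of cluster 23 and 4.25% of cluster 7, and Havcr2 in 0.475% of NK cells, 3.02% of cluster 7 and 0 of 163 cells of cluster 23, which allows a share of up to 1.84%. Tigit was less far apart, at 83.2 against 169 CPM.

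The secreted factors leaned to chemokines. Xcl1, the ligand of the cDC1 receptor XCR1, stood at 2448 CPM against 638 in the other T/NK cells and was seen in 63.9% of NK cells. Flt3l, the growth factor of dendritic cells, stood at 71.3 against 44.5 CPM. Ifng (162 against 769), Ccl4 (1864 against 3775) and Ccl3 (313 against 894) were lower than in the other T/NK cells, Il2 stood at 0.735 CPM, and no UMI of Il10 was found in 1614 cells, which allows a share of up to 0.186% of cells with a UMI. None of the 15 cytokines and chemokines was highest in cluster 24. The receptors for the cytokines that drive NK cells were present, with Il2rb, the beta chain shared by the IL-2 and IL-15 receptors, at 820.5 against 450.3 CPM, Il12rb2 at 175, Il18rap at 232 and Stat4 at 381.

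Eomes and Tbx21, the T-box factors of conventional NK cells, were both present, and the 8 markers of innate lymphoid type 1 cells (ILC1) summed to 293 CPM against 485 in the other T/NK cells. Eomes stood at 156 CPM against 22.5, and Tbx21 (T-bet) at 175 against 133. Of the ILC1 and residency genes, Cxcr6 (14.2 against 152), Il7r (34.5 against 179) and Itgae (2.20 against 26.4) were low, and Itga1 (CD49a) was higher, 105 against 40.2. The chemokine receptor Ccr2 stood at 298 against 99.1 CPM. S1pr5 and Cma1, which rise in mature NK cells, stood at 5.39 and 6.61 CPM. The 12 NK maturation genes together summed to 2073 CPM against 1776 in the other T/NK cells, and 7 of them reached 50 CPM. The interferon-induced gene Ifi27l2a was far lower than in the other T/NK cells (74.4 against 1565).

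Cells within the cluster differed in their granzymes. Gzmc, a granzyme of strongly stimulated killers, was seen in 328 cells (20.3%) spread over 42 tumors, and these cells were set against the 1286 others. The split was made after the values had been seen and is a description. Cells with Gzmc were deeper, with a median of 3981.5 UMIs against 1557. Its neighbours in the granzyme cluster went with it: Gzmd stood at 389.7 CPM in cells with it and 2.34 CPM in cells without it, and Gzmf at 332 and 1.95 CPM, although reads can be shared between these close copies. Spp1 (osteopontin) stood at 1285 CPM in cells with it and 204 CPM in cells without it, higher in 19 of 21 tumors that had at least 5 cells of each kind. The interferon-induced membrane genes Ifitm1 (1157 and 264 CPM), Ifitm2 (881 and 383 CPM) and Ifitm3 (320.2 and 99.6 CPM), the peptidoglycan binder Pglyrp1 (609 and 263 CPM, higher in 20 of 21), the lectin Lgals3 (373 and 158 CPM) and the integrin Itga1 (148 and 78.5 CPM, higher in 17 of 21) moved the same way.

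Xcl1 was higher in the cells with Gzmc (3183 and 2009.8 CPM, higher in 17 of 21 tumors), and several other effector genes ran against Gzmc. Ccl5 stood at 235 CPM in cells with it and 3101 CPM in cells without it, lower in 21 of 21 tumors. Ccl4 stood at 713 and 2549 CPM and Ccl3 at 95.8 and 443 CPM. Gzma, 889 and 2488 CPM, was lower in 19 of 21 tumors, and so were Klrb1c (174 and 381 CPM, lower in 19 of 21), Klra4 (138 and 442 CPM, 20 of 21) and Eomes (106 and 185 CPM, 18 of 21). The early activation factor Nr4a1 (126 and 435 CPM) was also lower. Ncr1 (426 and 468 CPM), Prf1 (385 and 331 CPM) and Gzmb (827 and 675 CPM) lay closer together in the 2 kinds of cell, and Cd3e did too (18.4 and 19.9 CPM).

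The pattern was still present when each cell was thinned to 1000 UMIs, which kept 1262 cells and left out 352. Of the 240 thinned cells with Gzmc, 45% had Spp1, against 9.20% of the 1022 others, 8.75% against 54.0% had Ccl5, and 22.1% against 53.9% had Gzma. In the 331 NK cells with an Spp1 UMI, which were deeper (median 4195 against 1551 UMIs), the macrophage transcript Lyz2 stood at 28.6 CPM against 66.1 CPM in the rest and Apoe at 24.1 against 42.6 CPM, while Gzmc stood at 4120.4 against 545 CPM, higher in 19 of 19 tumors. The Lyz2 and Apoe levels were not compared at equal depth, and the part of macrophage RNA in Spp1 was not tested. No doublet caller was run, so pairs of cells read as 1 remain in these counts.

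**Figure D2:**
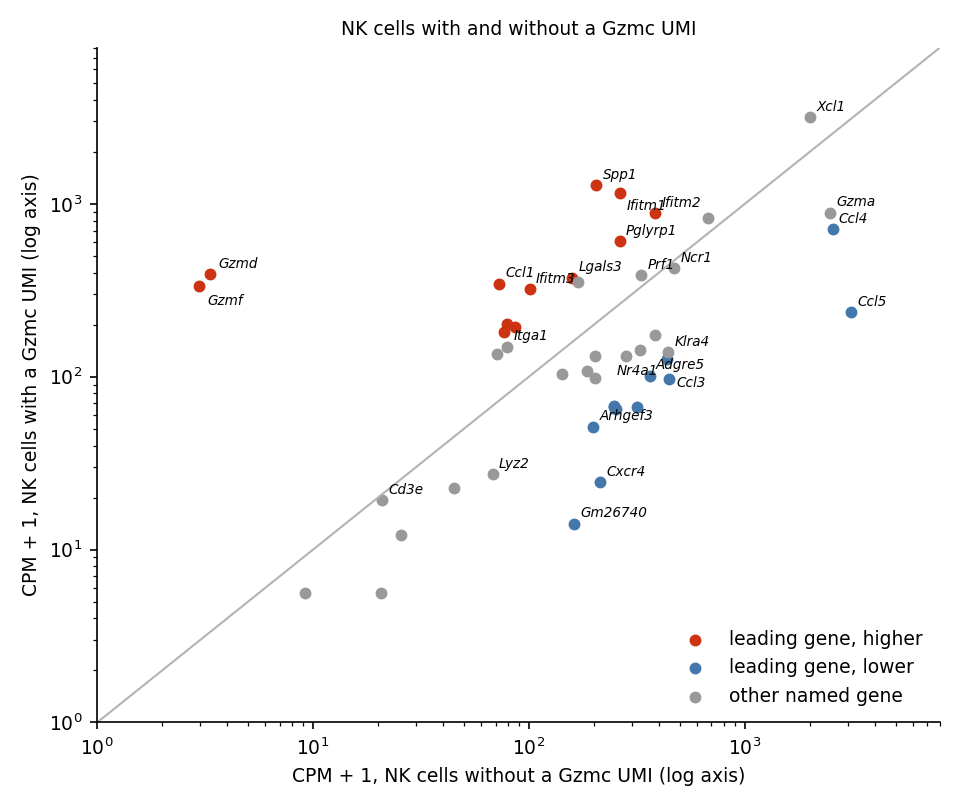
Level (CPM + 1, log axes) of named genes in NK cells with a Gzmc UMI (vertical) and without one (horizontal), with the line of equal level. Red genes lead on the higher side and blue genes on the lower side of the split, grey genes are other named genes, and Gzmd and Gzmf lie farthest above the line while Ccl5 lies far below it.

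The share of thinned NK cells with Gzmc is given by strain with no test. Over tumors with at least 10 thinned cells, the lowest, median and highest values were 0, 3.70 and 10% in CC075 (4 tumors), 5.26, 9.10 and 12% in CC036 (4), 14.3, 25 and 34.6% in CC079 (4) and 9.21, 25.2 and 31.7% in CC080 (6). They were 6.67, 17.6 and 34.1% in B6 (5), 5.56, 20 and 23.1% in CC001 (5), 11.1, 24.6 and 40% in CC002 (6) and 8.33, 26.7 and 35.9% in CC007 (3). Every CC075 and CC036 value lay below every CC079 value, and most other ranges overlapped. Pools went with strain, since these CC079 tumors were in pools 1, 2 and 5 and the CC075 and CC036 tumors in pools 8 to 11. Within 1 strain, B6 had 33.3 and 34.1% in pool 6 but 6.67 to 17.6% in pools 7 and 8. Strain and pool therefore cannot be told apart for CC079 against CC075 and CC036. Within pool 11, the CC075 aPD1 tumor (10 thinned cells) had 0%, and the CC080 aPD1 and isotype tumors had 31.6 and 22.7%. By group, the medians were 20% in responder isotype tumors (5 tumors), 11.8% in responder aPD1 (10), 14.3% in non-responder isotype (9) and 30% in non-responder aPD1 tumors (5), with overlapping ranges. These groups mix strains unequally, since most of the 5 non-responder aPD1 tumors were CC080 and most of the 5 responder isotype tumors CC002. Strain and treatment cannot be told apart in these medians.

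The number of NK cells was then compared between groups, each tumor counting once. Tumors of 1 strain count as separate replicates, so p-values between classes do not measure the spread between strains of a class. NK cells per tumor ran from 0 to 140 with a median of 22, among 53 to 3082 cells. In isotype tumors NK cells made up 0.214, 0.661 and 6.05% (lowest, median, highest) of the cells in responder strains, 1.32% ± 1.71 (SD, n = 10). In non-responder strains they made up 0.673, 1.24 and 6.84%, 2.71% ± 2.42 (SD, n = 9). The ranges overlapped, with 5 responder tumors below every non-responder tumor. The difference of means was -1.39 percentage points (exact permutation test of the rank sum, two-sided, p = 0.0435), and it did not pass after adjustment over the 10 share comparisons (adjusted p = 0.193). Within the 8 pools that held both classes, the difference was -1.38 (exact sign-flip permutation, p = 0.133), and without the CC036 isotype tumor of pool 8, which had the highest isotype share, it was -0.877 (exact permutation p = 0.0831). In 4 of 6 fits that left out a strain, the exact permutation p lay above the threshold, from 0.118 to 0.456 (without CC001, CC075, CC036 or CC080).

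The isotype comparison was repeated among T/NK cells alone. NK cells made up 3.81, 5.67 and 22.99% of T/NK cells in responder tumors, 8.88% ± 6.68 (SD, n = 10), and 9.94, 15.4 and 30.6% in non-responder tumors, 17.6% ± 6.06 (SD, n = 9). The ranges overlapped, with 7 responder tumors below every non-responder tumor. The difference was -8.75 percentage points (exact permutation p = 0.0101, adjusted p = 0.101), and -9.61 within pools (exact p = 0.0391, higher in the responder in 1 of 8 pools). Without CC001 it was -6.18 (exact permutation p = 0.145). In this share, fewer NK cells and more T cells cannot be told apart.

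After aPD1 neither share differed between classes beyond the spread. Responder aPD1 tumors held 0.559, 1.13 and 6.86% NK cells, 1.73% ± 1.86 (SD, n = 10), and non-responder aPD1 tumors 0.0593, 0.490 and 3.55%, 1.08% ± 1.11 (SD, n = 9). The difference was 0.651 percentage points (exact permutation p = 0.211, adjusted p = 0.264), and without CC080 it was 0.849 (exact permutation p = 0.0225). The share of T/NK cells was 10.3% ± 4.02 and 13.4% ± 9.16 (difference -3.11, exact permutation p = 0.661, n = 10 and 9).

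Treatment itself moved the share in neither class beyond the spread. In responder strains aPD1 minus isotype was 0.409 percentage points (exact permutation p = 0.143, adjusted p = 0.204), higher in 7 of 10 pairs of tumors of 1 strain and pool. Without the CC075 aPD1 tumor of pool 9, which had the highest share of all, the difference of means turned to -0.160, while the medians were still 1.11% with aPD1 and 0.661% with isotype and 6 of 9 pairs were higher (exact permutation p of the ranks = 0.243). Without that tumor and the CC002 isotype tumor of pool 12, which had 248 cells, the difference of means was 0.365 (exact permutation p = 0.0939). Without the strain CC002 it was 1.13 (exact permutation p = 0.0262). In non-responder strains it was -1.64 (exact permutation p = 0.0770, adjusted p = 0.193), lower in 7 of 9 pairs, and -1.22 without CC080 (exact permutation p = 0.0411). The responder effect exceeded the non-responder effect by 2.04 percentage points (exact permutation p = 0.0653, adjusted p = 0.193), or by 2.60 (exact permutation p = 0.0244) without the CC002 isotype tumor. Each of the 3 CC079 aPD1 tumors (0.0593, 0.478 and 0.225%) lay below each of the 3 CC079 isotype tumors (1.07, 1.24 and 0.673%), and 3 of 4 CC001 pairs went up under aPD1. The 1 tumor without an NK cell was a CC007 aPD1 tumor of 53 cells, which allows a share of up to 5.66%.

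**Figure D3:**
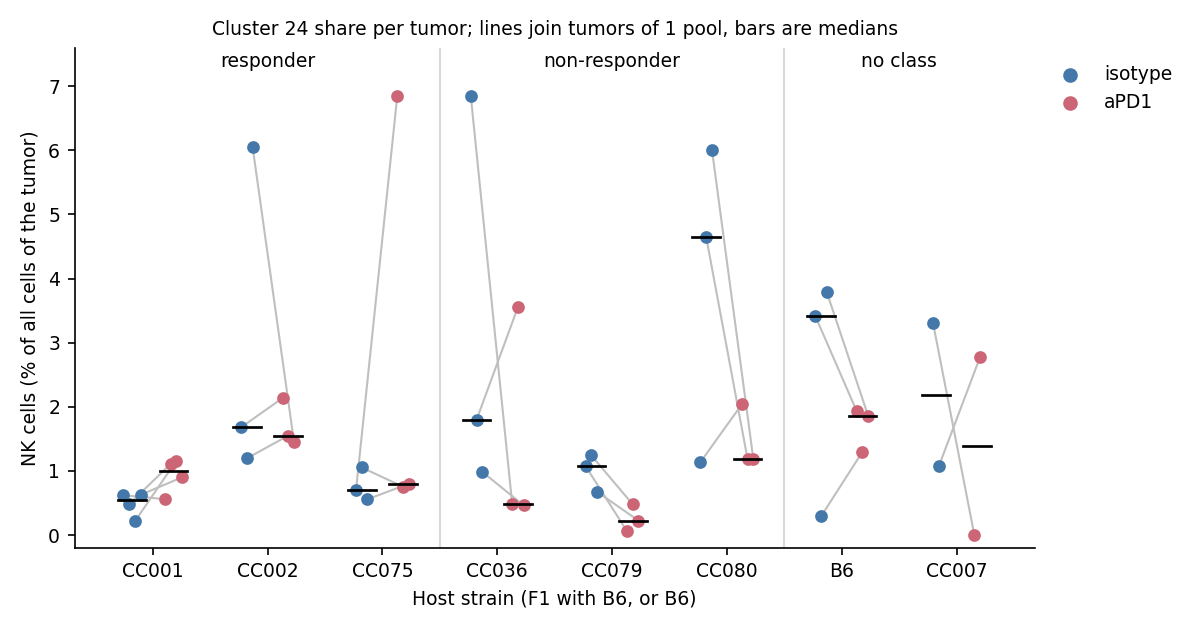
NK cells as a percentage of all cells of a tumor, by host strain and treatment, with points of the same pool joined and a bar at the median. Most tumors lie under 2%, the CC079 pairs all fall from isotype to aPD1, and single tumors of CC036, CC075, CC080 and CC002 stand above 6%.

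The NK share differed between host strains, but each strain was in only 2 to 4 pools, the test did not use the pool, and strain and pool cannot be told apart in it. Strain took 0.350 of the variance of the ranks (permutation test, 100000 permutations within treatment, p = 0.0135, 8 strains, 48 tumors). The lowest mean was 0.254% ± 0.211 (SD, n = 3) in CC079 with aPD1, every tumor of which lay below every CC001 aPD1 tumor, and with isotype it was 0.486% ± 0.193 (SD, n = 4) in CC001. CC080 isotype tumors held 3.93% ± 2.51 (SD, n = 3) and B6 isotype tumors 2.50% ± 1.92 (SD, n = 3). In isotype tumors the ranges of strains next to each other in the order of means overlapped. The strain value ran from 0.266 to 0.426 when each strain was left out in turn, with permutation p from 0.0042 to 0.107.

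NK cells and cDC1 (cluster 6) rose together across tumors in rank. Over 48 tumors, Spearman's rho between the 2 shares of all cells was 0.357 (permutation p = 0.0128, adjusted p = 0.0128 over 2 relations) and Pearson's r was 0.253 (permutation p = 0.0826). Leaving out the 2 tumors farthest from the median NK share, an aPD1 CC075 tumor and an isotype CC036 tumor, gave r = 0.368 (permutation p = 0.0126) and rho = 0.419 (permutation p = 0.00396). In pools 1 to 5 rho was 0.759 (permutation p = 0.00016), and in pools 8 to 12, which held partly other strains, it was 0.150 (permutation p = 0.524), so the relation did not hold in both sets of pools. Against the share of cytotoxic T cells (clusters 3 and 13), rho was 0.364 (permutation p = 0.0118, adjusted p = 0.0128) and r was 0.520 (permutation p = 0.00059), and without the same 2 tumors rho was 0.282 (permutation p = 0.0567) and r was 0.385 (permutation p = 0.0122), so the rank relation no longer passed without them. Within pools 1 to 5 and 8 to 12 rho was 0.459 (permutation p = 0.0446) and 0.289 (permutation p = 0.216). The shares are parts of 1 total, and tumors of 1 strain share their host genome.

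**Figure D4:**
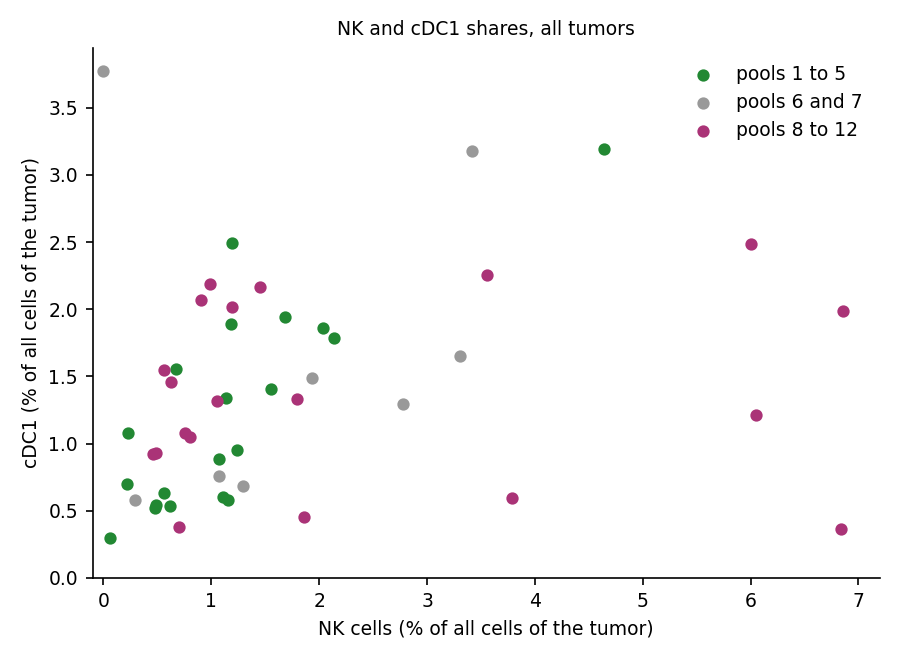
NK cells against cDC1, each as a percentage of all cells of a tumor, for 48 tumors marked by pool number. In pools 1 to 5 the tumors rise together (rho 0.759), while in pools 8 to 12 they scatter (rho 0.150).

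For gene tests, UMIs were summed over the NK cells of each of the 38 tumors with at least 10 such cells, and levels below are TMM-scaled CPM of those sums. Of 10 responder isotype tumors 6 reached that number, as did 10 of 10 responder aPD1, 9 of 9 non-responder isotype and 5 of 9 non-responder aPD1 tumors. The strain mix therefore differs between these groups, and group levels below are not adjusted for it. Between response classes, with treatment in the model, edgeR called 2 of 1264 genes, 0.158% of those tested, both lower in responder strains. DESeq2 called 3, with 1 of them higher in responder strains, and 110 genes had an unadjusted p under 0.05 in edgeR. Without the strain CC036 edgeR called 56 genes, 34 of them higher in responder strains.

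Ly6a (Sca-1, an interferon-induced surface protein, chr15:74994877-74998031 of GRCm38) was lower in responder strains. It stood at 0, 171 and 404 CPM (lowest, median, highest) in 16 responder tumors and at 40.8, 923 and 1858 CPM in 14 non-responder tumors, with overlap. The fold was log2 -2.03 ± 0.43 SE and the edgeR adjusted p was 0.0233. By strain, CC080 (888, 1218 and 1858 CPM) and CC079 (448, 917 and 1111) were high. The other non-responder strain, CC036 (40.8, 50.1 and 104), lay with CC075 (0, 73.4 and 168), CC001 (38.4, 73.5 and 319.8) and B6 (0, 81.7 and 192), so the high values came from 2 of the 3 non-responder strains. In macrophages the order was another one, with medians of 368 CPM in CC079 and 1538 in CC002. The call was kept in 1 of 6 fits that left out a strain, and the adjusted p was 0.0809 without the cells with Cd3.

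The other called gene was Gm10260, a predicted gene close in sequence to the ribosomal gene Rps18, so its reads are uncertain. It stood at 758, 1378 and 2351 CPM in non-responder and 0, 0 and 36.7 CPM in responder tumors, with no overlap (log2 -6.73 ± 0.29 SE, edgeR adjusted p = 4.78e-20). Macrophages showed the same strain pattern, with medians of 673 to 847 CPM in CC036, CC079, CC080 and CC007 and at most 5.39 CPM in the others. Rps18 itself went the other way. DESeq2 called it higher in responder strains (log2 0.56 ± 0.13 SE, DESeq2 adjusted p = 0.0146), and the main edgeR fit did not call it.

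No member of the NK gene lists below was called between classes. Of the 14 NK identity genes 0 were called, of 12 tested activating receptors 0, of 10 cytotoxic genes 0, and of 7 cytokines 0. Ly6a was the 1 called gene among 5 tested interferon response genes, where 0.158% of all genes tested were called. Xcl1 stood at 395, 1543 and 3771 CPM in responder and 1474, 3162 and 5498 CPM in non-responder tumors, log2 -0.73 ± 0.24 SE, with an edgeR adjusted p of 0.329. Ly6c2, a surface protein of mature NK and memory cells, gave log2 1.33 ± 0.42 SE with an edgeR adjusted p of 0.285. The median over the cytokine list was -0.44 and over the NK identity list 0.20, against 0.01 over all genes tested.

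Against isotype, aPD1 called no NK gene. Over all strains edgeR called 0 of 2151 genes (0% of those tested) in 38 tumors, DESeq2 called 0, and 42 had an unadjusted p under 0.05. In responder strains edgeR called 0 of 1107 (0%), DESeq2 0, with 52 under 0.05 unadjusted, over 16 tumors. In non-responder strains edgeR called 0 of 2213 (0%), DESeq2 0, with 60 under 0.05, over 14 tumors. The test of the difference between classes in the aPD1 effect also called 0 of 1840 genes (0%) with edgeR and 0 with DESeq2, with 99 under 0.05 unadjusted and a smallest adjusted p of 0.324.

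The values of the main effector genes are given for scale. Ncr1 stood at 149.6, 281 and 709.8 CPM in responder isotype and 308, 571 and 758 CPM in responder aPD1 tumors. In non-responder tumors it stood at 346, 473 and 694 CPM with isotype and 298, 403 and 609 CPM with aPD1. The aPD1 effect was log2 0.52 ± 0.22 SE in responder and log2 -0.14 ± 0.20 SE in non-responder strains, and the groups overlapped in both. Ccl5 gave log2 0.83 ± 0.35 SE and log2 -0.19 ± 0.28 SE, Gzma log2 0.28 ± 0.28 SE and log2 -0.32 ± 0.31 SE, and Prf1 log2 -0.25 ± 0.30 SE and log2 -0.13 ± 0.24 SE. Gzmb, a granzyme that sets off cell death, gave log2 -0.56 ± 0.30 SE and log2 0.47 ± 0.30 SE, the opposite order.

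Spp1 gave log2 1.12 ± 0.34 SE in non-responder strains, where it stood at 32.9, 410.4 and 2211 CPM with isotype and 203, 1310.2 and 1886 CPM with aPD1. Its edgeR adjusted p was 0.998, and the groups overlapped. Gzmc gave log2 0.77 ± 0.35 SE in the same strains and log2 -0.64 ± 0.72 SE in responder strains. The macrophage marker list, which holds Spp1, summed to 225, 667 and 1972 CPM in the NK cells of non-responder isotype tumors and to 334, 1373 and 1553 CPM in those of non-responder aPD1 tumors. The folds have strain in the model, but these sums and the Spp1 levels do not. Most of the 5 non-responder aPD1 tumors were CC080, where Spp1 was higher than in CC036.

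The cell cycle list was the group furthest from the rest in the difference of effects, with none of its genes called. All 6 tested members lay below 0, with a median of -0.94 against 0.03 over all genes. Stmn1, a tubulin regulator of dividing cells, gave log2 -1.75 ± 0.70 SE and Hmgb2, a chromatin protein of dividing cells, log2 -1.05 ± 0.49 SE, and the edgeR adjusted p of both was 0.886. Stmn1 stood at 0, 212 and 379 CPM and 0, 65.3 and 477 CPM in responder isotype and aPD1 tumors, and at 0, 212 and 414 CPM and 87.0, 291 and 595 CPM in non-responder tumors. The NK identity list lay on the other side, with 13 of 14 members above 0 and a median of 0.37, and again none was called. Most lists lay on that side. The activating receptor, immediate early, cytokine and cytokine receptor lists lay further out, with medians of 0.53, 0.52, 0.52 and 0.52. The cytotoxic and ILC1 lists had medians below 0 (-0.12 and -0.41).

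Between the 8 host strains, in contrast, 172 of 2151 NK genes were called by edgeR with treatment in the model, 8.00% of those tested, over 38 tumors. DESeq2 called 312, 169 of the 172 among them. In every fit that left out a strain 31 of the 172 were called, and 108 without cells with Cd3. With a term for pools 1 to 6 against 7 to 12, 36 of the 172 were called, and with pools as blocks 22. Strains and pools are partly the same, so most of the 172 cannot be told apart from pools. The genes described below are the 20 of smallest p and the called members of the gene lists.

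Klrb1a, Klrb1c, Klra1, Klra5 and Klrd1, receptors of the NK gene complex on chromosome 6, were called. By list, 3 of 17 tested activating and costimulatory receptors and 3 of 7 tested inhibitory receptors passed, against 8.00% of all genes, and 1 of each 3 passed with pools as blocks. Klrb1a (NKR-P1A, chr6:128609227-128623533), an activating lectin receptor, was highest in CC001 (286, 358 and 422 CPM) and CC036 (218, 265 and 286) and lowest in CC075 (29.9, 50.3 and 123), and CC001 did not overlap with CC075 (edgeR adjusted p = 1.18e-05). Klrb1c (chr6:128778485-128789215), 1 of the 4 markers of the cluster, ran the other way in CC075 (268, 474 and 528), was highest in B6 (388, 519.5 and 607) and lowest in CC080 (131, 187 and 300.3; adjusted p = 0.00432). Klra1 (Ly49A, chr6:130363917-130386874), an inhibitory receptor for MHC class I, stood at 115, 225 and 254 CPM in CC036 and 73.2, 204 and 342 in CC002, but had no UMI in most CC075 tumors (0, 0 and 29.4; adjusted p = 0.000304). Klra5 was also near 0 in CC075 (0, 0 and 4.89) and ran from 0 to 336 CPM in CC002. Klrd1 (CD94), the partner chain of the NKG2 receptors, stood at 1199, 1446 and 1553 CPM in CC007 and 504, 671 and 899 in CC036, with no overlap (adjusted p = 0.0351, 0.95 with pools as blocks and 0.129 without cells with Cd3). Klrb1a and Klra1 were called with pools as blocks as well (adjusted p = 3.63e-05 and 0.00205), and Klrb1c and Klra5 were not (0.504 and 0.950). A low value of these genes can be a low level or an allele that the B6 reference does not catch, and this was not tested.

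The cytokine and chemokine list had the most calls: 5 of 9 tested members passed, against 8.00% of all genes, but with pools as blocks only Ccl3 of these 5 was called. Ccl3 (chr11:83647844-83649355) stood at 201, 897 and 1612 CPM in CC079 and 264, 711 and 857 in CC036, against 44.8, 77.1 and 144 in CC080, below every CC079 and CC036 value (adjusted p = 0.0108, 6.46e-05 with pools as blocks). Ccl5 (chr11:83525778-83530518) stood at 1404, 5518 and 5845 CPM in CC007 and 2336, 3246 and 5282 in CC079, against 683, 958 and 3086 in CC080 and 934, 1211 and 2218 in CC002 (adjusted p = 0.0103, 0.156 with pools as blocks). Both were low in CC080, a non-responder strain, and high in CC079, another.

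Xcl1 stood at 3919, 4575 and 5498 CPM in CC079 and 395, 718 and 2109 in CC075, with no overlap (adjusted p = 0.0188), but its call was lost with pools as blocks (adjusted p = 0.154), with the pool term (0.178) and without cells with Cd3 (0.0824). Ltb, a lymphotoxin chain, and Csf2 (GM-CSF) were the other 2, and Csf2 did not pass in DESeq2 (adjusted p = 0.109). With pools as blocks the adjusted p was 0.467 for Ltb and 0.138 for Csf2, and with the pool term 0.133 and 0.0843.

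Spp1 (chr5:104435118-104441050) and Lgals3 (chr14:47367751-47386160), both known from macrophages, differed by strain in the NK cells. Spp1 stood at 223, 1175 and 1886 CPM in CC080 and 410.4, 811 and 2211 in CC079, but at 32.9, 51.6 and 203 in CC036 and 0, 83.8 and 158 in CC075 (adjusted p = 0.00114). The CC079 values did not overlap with those of CC036 or CC075. Macrophage medians of Spp1 were 1124 CPM in CC036, 1806 in CC079 and 476 in B6. With pools as blocks Spp1 was not called (adjusted p = 0.95). Lgals3, a galectin, stood at 264, 424 and 438 CPM in CC007 and 275, 352 and 518 in CC080, against 27.2, 41.8 and 104 in B6 and 0, 67.0 and 97.8 in CC075 (adjusted p = 2.33e-07). Its macrophage medians spanned only 1338 to 1961 CPM.

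Ifitm1 and Ifitm2, small membrane proteins induced by interferon and encoded on chromosome 7, were both called. Ifitm2 stood at 1313, 1589 and 2263 CPM in CC080 and 396, 559.6 and 799 in CC007, against 0, 30.8 and 67.0 in CC075 (adjusted p = 1.97e-08). Ifitm1 stood at 838, 1730.1 and 2488 CPM in CC080 and 0, 45.1 and 95.3 in CC036 (adjusted p = 1.51e-05). CC080 lay above every tumor of CC075 and CC036 for both genes. In macrophages the Ifitm2 medians ran only from 708 CPM in CC036 to 1071 CPM in CC002, while the NK medians ran from 30.8 CPM in CC075 to 1589 CPM in CC080.

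Some strain genes were high in 1 or 2 strains. Wls, a carrier for Wnt proteins, stood at 355, 392 and 436 CPM in CC036 and at 109 or less in every other tumor. Lsamp, an adhesion molecule of neurons, stood at 152, 176 and 201 in CC007 and 0, 206 and 265 in CC002, with no UMI in CC001, CC036 and CC075. Mid1, a ubiquitin ligase, stood at 118, 257 and 749 in CC001. H2-Q2, a non-classical MHC class I gene with close relatives, stood at 304, 326 and 366 in CC007 and had no UMI in CC002 and CC075. Others among the 20 of smallest p were Pde4d, a cAMP phosphodiesterase (median 243 CPM in CC007 and 18.6 in CC080), Cep85 (241 in CC002 and 19.6 in CC075), Ms4a6b (193 in CC002 and 33.5 in CC075) and the predicted genes Gm47283, Gm43305 and Gm2682. Ftl1-ps1, named as a copy of another gene, was also among them, and its reads are uncertain.

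**Figure D5:**
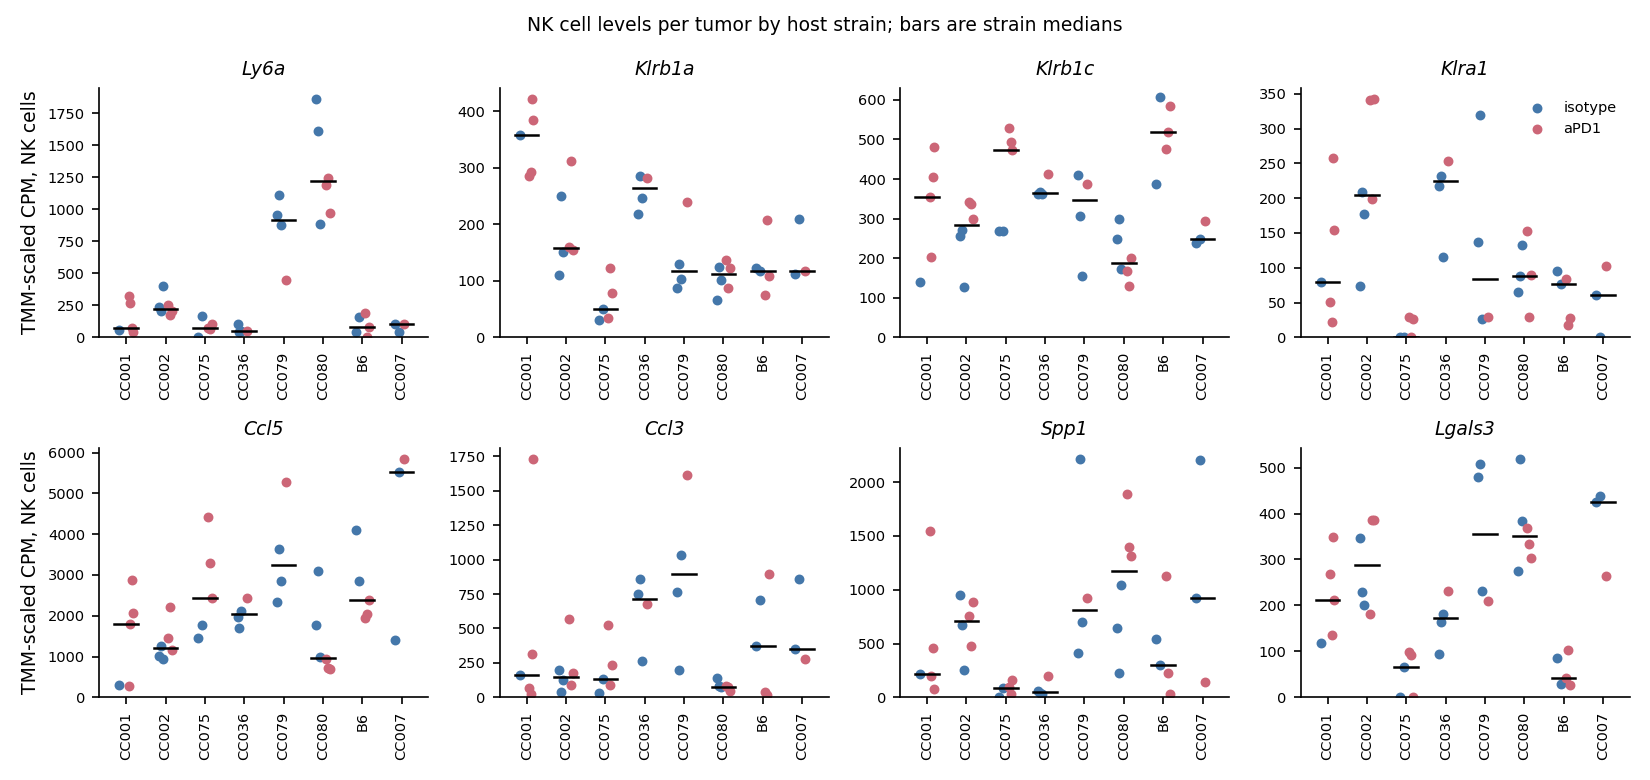
Level in NK cells (TMM-scaled CPM of the sums per tumor) of Ly6a, Klrb1a, Klrb1c, Klra1, Ccl5, Ccl3, Spp1 and Lgals3 by host strain, 1 point per tumor with at least 10 NK cells and a bar at the median. Every CC079 and CC080 tumor lies above all others for Ly6a, Klra1 is near 0 in CC075, and the lowest Ccl3 median is that of CC080 (44.8 to 144 CPM).

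The other lists had fewer calls, to be read against the 8.00% called over all genes tested, a share near which 1 of 19, 1 of 12 and 1 of 8 lie. Of 14 NK identity genes 3 were called (Klrb1c, Klrd1 and Ccl5), of 17 activating receptors 3 (with Klrb1a and Cd160), and of 13 cytotoxic genes 2, Gzmf and Fasl, of which Gzmf did not pass in DESeq2 (adjusted p = 0.395). Of 14 cytokine receptors and signalling genes 4 were called: Il12rb2, Il18rap, Stat4 and Stat3. The first 3 serve the IL-12 and IL-18 response, and each had its highest strain median in CC036 and its lowest in CC079, with Stat4 at 428, 584 and 783 and 155, 273 and 418 CPM. These 4 calls were lost with the pool term (adjusted p from 0.343 to 0.628). None was called of 6 maturation genes, 10 immediate early and heat shock genes or 6 cell cycle genes, and 1 of 19 transcription factors was, Bach2 (adjusted p = 0.0347). The remaining called members were Ly6a (1 of 8 interferon response genes) and the adapter chain Cd247 (CD3 zeta, 1 of 8 adapters). They also included the chemokine receptor Cxcr4 (1 of 12 homing genes) and the phosphatase Inpp4b (1 of 3 ILC1 genes). H2-Q6 and H2-Q7 were called as well (2 of 10 MHC class I genes). Inpp4b stood at 252, 652 and 939 CPM in CC002 and 26.3, 168 and 239 in CC075, with no overlap, and H2-Q7, which has close relatives, at 299, 737 and 1023 in CC075 and 289, 343 and 352 in CC007. Without cells with Cd3 the calls of Bach2 (adjusted p = 0.0861), Il18rap (0.0852) and Fasl (0.0688) were lost, and Cd160 and Mid1 had no value in that fit. With pools as blocks, Klrb1a and Ly6a were the genes of these lists that were still called.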

How the data were processed

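The members and gene lists were chosen with earlier results of these data known. The authors aligned reads to GRCm38 (mm10) with Cell Ranger, assigned hashtags, removed cells by mitochondrial and ribosomal share, and clustered with Seurat 5.0.1, corrected for processing date, with T and NK cells clustered again. They deposited raw UMI counts for 27457 symbols in 93126 cells, with a cluster, strain, treatment and hashtag for each cell. Cell filters beyond theirs were not applied, and no doublet caller was run. Of 87940 distinct barcodes 4990 occurred in more than 1 library, and 171 NK cells (10.6%) had a barcode also found in another library, against 10.9% of all cells.

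A tumor is 1 strain and treatment of 1 pool, and the replicate is the tumor. Class belongs to the strain, so tests between classes do not measure the spread between strains of a class. Shares were compared by the exact permutation test of the rank sum, two-sided, with Benjamini-Hochberg adjustment over 10 comparisons. UMI counts were summed over NK cells per tumor (at least 10 cells) and tested with edgeR 4.0.16 (TMM, filterByExpr, quasi-likelihood, Benjamini-Hochberg over all genes tested, threshold 0.05) in R 4.3.3. DESeq2 1.42.0 was the alternative tool. The edgeR steps were tested on simulated counts. CPM of a group of cells is the gene's UMIs over all their UMIs. Named genes were, for each list, the called members and the 4 of highest CPM, and for each comparison the 10 called genes of smallest p in each direction (20 for strains). Others were named after their values were seen, and a few members are not reported here. Median NK depth was 1745.5 UMIs and 921 genes per cell (499 to 19997 UMIs), and by class and treatment it ran from 1554 in responder aPD1 to 2234.5 in non-responder aPD1 tumors. Limits on a count of 0 cover counting error only. The deposited cell table names an animal for each tumor. Isotype and aPD1 tumors of 1 strain and pool share a library, so pairs are pairs of a library and not of an animal. Gene positions are from GENCODE vM21 on GRCm38. Alternatives were other tools, filters, cell minimums, pool blocks, and leaving out a strain.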

Additional observations from a re-analysis of the deposited data

Results flagged for a closer look

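In 2 of 16 groups tested, 1 tumor stood apart from the rest of its group (Dixon's test, which flags about 1 group in 20 by chance). The groups were those of class and treatment, each tested for the 2 NK shares and the levels of Ly6a and Gm10260. Both flags were in the NK share of all cells. Among the 10 responder aPD1 tumors, the CC075 tumor of pool 9 held 6.86% NK cells (131 of 1911 cells), and the next highest held 2.14%. Among the 10 responder isotype tumors, the CC002 tumor of pool 12 held 6.05% (15 of 248 cells), and the next highest held 1.68%. In these 2 tumors T/NK cells made up 35.6 and 36.3% of all cells, and NK cells 19.2 and 16.7% of T/NK cells. Neither was flagged in the NK share of T/NK cells. Without the first tumor the difference of means between aPD1 and isotype in responder strains was -0.160, without the second 0.935 and without both 0.365 percentage points, against 0.409 with all tumors.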

How the results depend on the processing

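Pools as blocks pair tumors that share a library, not an animal. Gene calls rest on 10 to 140 NK cells per tumor, so genes of few UMIs were not tested. For the NK share of all cells, aPD1 against isotype in responder strains had a difference of means of -0.160 percentage points (exact p of the ranks = 0.243, with the aPD1 median still higher) without the CC075 aPD1 tumor of pool 9, chosen after seeing the data, and to -0.287 (exact p = 0.535) without CC075 (range without each strain -0.287 to 1.13, with 1.13 and exact p = 0.0262 without CC002). Counted among T/NK cells it reversed to -0.319 (exact p = 0.818) without CC001 (range -0.319 to 2.78, the latter with exact p = 0.0262 without CC002), and became 2.30 (exact p = 0.0435) in tumors of at least 500 cells, or without the CC002 isotype tumor of pool 12, a tumor chosen after seeing the data.

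The isotype difference between classes (main -1.39) lost p < 0.05 in 7 alternatives other than leaving out a strain: -1.21 (exact p = 0.0653) without cells with Cd3, -0.981 (0.156) for T/NK cells with Ncr1 or Klrb1c and no Cd3, -1.39 (0.134) with means permuted, -0.915 (0.310) in pools 1 to 5, -2.11 (0.190) in pools 8 to 12, -1.38 (0.133) with the pool block and -0.877 (0.0831) without the CC036 isotype tumor of pool 8, chosen after seeing the data. Without each strain it ran from -2.25 to -0.784, and 4 of those 6 fits also lost p < 0.05 (exact p = 0.456 without CC001, 0.142 without CC075, and 0.118 without CC036 and without CC080). Among T/NK cells it was -9.97 (exact p = 0.190) in pools 8 to 12 and ran from -10.1 to -6.18 without each strain, with p lost without CC001 (-6.18, exact p = 0.145). The non-responder aPD1 effect was -1.85 (exact p = 0.0499) without the 2 CC080 tumors that share an identifier (range -2.08 to -1.22, with exact p = 0.0411 without CC080), and -4.89 to -2.86 among T/NK cells. The difference of effects was 2.15 (exact p = 0.0330) without those 2 tumors and 2.60 (0.0244) in tumors of at least 500 cells or without the CC002 isotype tumor, 1.95 (0.0464) without that tumor and the CC075 aPD1 tumor and 2.76 (0.0311) without CC002, with ranges of 1.35 to 2.76 and, among T/NK cells, 3.88 to 6.98. The aPD1 difference between classes ran from 0.190 to 1.18, with 0.849 (exact p = 0.0225) without CC080, and from -5.69 to -1.23 among T/NK cells. The strain value ran from 0.266 to 0.426, with permutation p = 0.107 without CC001 and 0.0565 without CC079. In pools 8 to 12 the rho was 0.150 with cDC1 and 0.289 with cytotoxic T cells.

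Class calls (main 2) were 48 without a filter on low counts, 4 with at least 5 cells, 1 with at least 20, 4 without cells with Cd3, 7 with the pool block, 1 without the 2 CC080 tumors, 3 in DESeq2, and 1 to 56 without each strain, the 56 without CC036 (34 higher and 22 lower in responders). The 4 aPD1 tests, with 0 calls, gave 1, 1, 2 and 1 calls without a filter, and 1 in responder strains with the pool block. Strain calls (main 172) were 312 in DESeq2, 342 without a filter, 37 with at least 20 cells, 32 with the pool block, 36 of the 172 with the pool term, 107 without the 2 CC080 tumors and 62 to 327 without each strain. Counting each named called gene once per alternative, the call was kept 569 times and lost 139 times. The cause of these changes was not tested.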

Other observations

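Ifng, the gene of interferon gamma, split the NK cells in another way than Gzmc. The split was made after the values had been seen and has no test. Of the NK cells, 300 (18.6%) had an Ifng UMI. Ccl4 stood at 4313 CPM in them and 1198 CPM in the others, higher in 16 of 16 tumors with at least 5 cells of each kind. Ccl3 (711 and 205 CPM), Nr4a1 (563 and 254 CPM) and Xcl1 (3707 and 2105 CPM) were also higher, while Gzmc stood at 1893 and 1931 CPM. After thinning to 1000 UMIs, 59.7% of 159 cells with Ifng had Ccl4, against 23.8% of 1103 without it.

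The proliferation gene Mki67 was seen in 142 NK cells (8.80%). Top2a, the topoisomerase of dividing cells, stood at 451 and 33.7 CPM in cells with and without it, Ccl5 at 417 and 2417 CPM, and Gzmc at 2046 and 1894 CPM. After thinning, 10% of the 240 cells with Gzmc had Mki67, against 3.33% of the 1022 others.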
